A study of Nannospalax ehrenbergi and Mus musculus with 25 samples.

Results

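The genes described here are 38 genes of glycolysis and of glycogen metabolism, chosen as a list of symbols and found by their row names among the 60811 genes that at least 1 of 2 count tables names. All 38 were present among the 47593 genes of the mouse table. In the table of the blind mole rat Spalax, a burrowing rodent that tolerates low oxygen and rarely develops tumors, 35 of its 27988 genes belonged to the list, 34 of them under the same symbol and Gpi1 under the symbol Gpi. Pfkp, Slc16a1 and Fbp2 were therefore described in mouse alone. The list was read along 6 pairs of a muscle isoform and a general isoform of the same step, namely Slc2a4 and Slc2a1, Hk2 and Hk1, Pfkm and Pfkp, Pgam2 and Pgam1, Eno3 and Eno1, and Pygm and Pygl.

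RNA-seq was carried out on neck muscle and on tumors that had grown after 1 injection of the carcinogen 3-methylcholanthrene (3MCA) under the skin of the neck, in 16 Spalax and 9 mouse libraries. The question was how these genes differ between a tumor on the injected side (IS) and the muscle of the uninjected side (UIS) of the same animal, and how the muscle of treated and untreated animals compares. Spalax, caught in the wild, received 1 mg. Their ages could not be determined accurately. The submitters' series description gives about 2 years or at least 10 years, and the study estimates the treated animals at 2 to over 10 years. C57BL/6 mice of 3 to 4 months received 200 µg. Spalax gave 4 libraries of untreated control muscle, 4 libraries of injected muscle from animals without a tumor after 18 or 30 months (tolerant), and IS and UIS libraries of 2 animals with a benign granuloma (14 and 16 months) and of 2 with a malignant fibrosarcoma (18 and 30 months). Mouse gave 3 libraries of untreated control muscle, and IS and UIS libraries of 3 animals with a fibrosarcoma (11 to 14 weeks), all from males. The granuloma was described by the study as a spindle cell proliferation with fibrosis, and the fibrosarcoma as a dividing and inflamed tumor. Each library came from 1 animal. The 4 Spalax controls were female and 3 of the 4 tolerant animals were male, so sex cannot be told apart from treatment in that comparison.

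Glycolysis splits glucose into pyruvate and yields ATP without oxygen, and pyruvate is then reduced to lactate or passed on to the mitochondria. Skeletal muscle stores glucose as glycogen and expresses its own isoforms of several glycolytic enzymes, while most other cells and dividing cells use general isoforms of the same steps, encoded by other genes. Malignant tissue is known for a high uptake of glucose and a high output of lactate.

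The 2 genes of a pair carry related coding sequences, and a read could in principle be assigned to the wrong one. In GENCODE vM21 on GRCm38, the build named in the submitters' processing notes, Pgam2 lies on the minus strand of chr11:5801640-5803733 and Pgam1 on the plus strand of chr19:41911923-41918660, while Eno3 and Eno1 lie on the plus strands of chr11:70657202-70662513 and chr4:150236721-150248879. To show how far the isoforms can be told apart, the most similar stretch of 101 bases, the length of 1 read, was sought between the coding sequences of each pair. In Pgam2 and Pgam1 it differed at 12 bases and covered coding bases 607 to 707 of both genes, in exon 3 of 3 (chr11:5801728-5801828) and exon 4 of 4 (chr19:41917617-41917717). In Eno3 and Eno1 it also differed at 12 bases and covered coding bases 586 to 686, which span exons 7 and 8 of 12 in both. Capitals mark the bases that differ within a pair, written 5′ to 3′ on the coding strand.
Pgam2: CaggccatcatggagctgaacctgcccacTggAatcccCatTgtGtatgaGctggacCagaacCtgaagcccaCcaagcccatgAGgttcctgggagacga
Pgam1: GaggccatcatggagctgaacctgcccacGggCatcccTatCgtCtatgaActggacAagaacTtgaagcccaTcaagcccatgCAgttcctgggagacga
Eno3: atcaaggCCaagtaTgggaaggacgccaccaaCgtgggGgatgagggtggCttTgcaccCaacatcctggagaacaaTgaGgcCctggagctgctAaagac
Eno1: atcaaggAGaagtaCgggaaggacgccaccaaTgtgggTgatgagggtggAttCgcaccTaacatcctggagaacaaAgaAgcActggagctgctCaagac
The closest stretches of the other pairs differed at 9 bases in Pygm and Pygl, at 12 in Slc2a4 and Slc2a1, at 13 in Hk2 and Hk1 and at 16 in Pfkm and Pfkp. Over the whole coding sequence Eno3 and Eno1 shared 76.7% of their 1305 bases. Rows of near copies of these genes in the mouse table, pseudogenes and retrogenes such as Gapdh-ps15, Pgam1-ps2 and Eno1b, held at most 0.0318% of the value of their gene in any library. Only copies whose name is built on that of their gene were sought. How reads that match more than 1 place were counted was not checked, so these low values cannot show that no reads were shared. Corresponding Spalax sequences were not analysed here.

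Sequencing gave 17025447 to 23386729 reads in genes per Spalax library and 22143060 to 31179183 per mouse library, so that a normalised read count of 10 rested on 6.95 to 19.3 reads. Muscle fiber markers (15 genes in Spalax, 18 in mouse) made up 9.2% to 17.3% of the reads in Spalax muscle and 7.36% to 18.4% in mouse muscle, and none of them was at 0 in a whole group. In the tumors their share was 0.0045% to 0.0639% in Spalax and 0.00342% to 0.833% in mouse. In mouse Tnnc2, a troponin of fast fibers, measured 2.42 to 14.1 in muscle and was the 1 muscle marker near 0 there. Beside this, 9 fibroblast markers made up 0.0601% to 0.209% of the reads in Spalax UIS, 7.28% to 14.1% in granuloma and 0.9% to 3.37% in fibrosarcoma, and 0.0154% to 0.124% in UIS and 1.21% to 1.4% in IS of mouse. In such bulk samples fewer muscle fibers and less RNA of a gene per fiber cannot be told apart, and this holds for every IS against UIS value below. Control and tolerant libraries carried dual and all libraries of tumor-bearing animals single index barcodes, so that index and group cannot be told apart between them. Among the muscle libraries granuloma UIS 976, tolerant 2251, mouse control M1 and mouse UIS 512 held the most genes of the list outside the range of the others, tolerant 2375 stood apart in Pdk4 and fibrosarcoma UIS 2230 in 8 genes, and granuloma UIS 976 also carries a label line with another animal's number. They are described after the tumors, with the numbers of calls without them.

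In both Spalax tumors and in mouse the muscle isoforms Slc2a4, Pfkm, Pgam2, Eno3 and Pygm lay far below the UIS muscle, and the general isoforms Hk1 and Eno1 lay above it. A gene was called at a limma adjusted p of at most 0.05 over all genes tested. In granuloma 19 of 35 genes of the list were called, 8 higher and 11 lower in IS, where 24.3% of all 14735 genes tested were called, 11.7% higher and 12.6% lower. In Spalax fibrosarcoma 22 of 35 were called, 7 higher and 15 lower, against 36.3% of 14696 genes, 17.4% higher and 19% lower. In mouse 26 of 38 were called, 5 higher and 21 lower, against 45.1% of 15220 genes, 22.8% higher and 22.3% lower. An unadjusted p under 0.05 was reached by 24, 23 and 31 genes of the list, against 41%, 49% and 54.2% of all genes. The IS and UIS libraries did not overlap for 27 of 35, 28 of 35 and 31 of 38 genes of the list, against 69.8%, 74.3% and 60.2% of all genes. When the libraries were scaled by their total reads instead, which moved the median log2 fold change of all genes to 0.73, 0.86 and 1.21, the numbers called higher and lower became 10 and 10, 11 and 12, and 10 and 13. The median log2 fold change of the list was -0.74, -0.60 and -1.87 in these 3 comparisons, beside -0.01, 0.03 and 0.11 over all genes. Among the 6 muscle isoforms the medians were -7.72, -9.50 and -7.21, with 5, 5 and 6 called lower. Among the general isoforms, 5 in Spalax and 6 in mouse, they were 3.04, 2.88 and 2.06, with 4, 4 and 3 called higher. Skeletal muscle fiber markers had medians of -10.81, -13.46 and -8.07, and were called lower in 15 of 15, 15 of 15 and 16 of 17 genes tested. The part of the muscle content in the changes of the list was not tested.

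Of the 38 genes, 14 were called in all 3 tumor comparisons, 7 more in 2 of them, 11 in 1 and 6 in none. Over the genes tested in all 3 comparisons, the list had 14 of 35 called in all 3, 7 in 2, 9 in 1 and 5 in none, where of 10966 genes 15.9% were called in all 3, 17.2% in 2, 28% in 1 and 38.9% in none. Gpi1, Pfkm, Pgam2, Eno3, Ldhb, Slc2a4, Pfkfb1, Pdk2, Pdk4, Pygm and Phka1 fell in all 3, and Hk1, Eno1 and Eno2 rose in all 3. Gpi1 in granuloma and Eno1 in mouse were not called in the fit that blocks on the animal, and edgeR did not call Gpi1 in granuloma or Ldhb and Pdk4 in Spalax fibrosarcoma. The plot of log2 fold changes shows all genes in the order in which they are described below. Values are normalised read counts, given in the order of animals 600 and 976 for granuloma, 2230 and 2240 for Spalax fibrosarcoma, and 1019, 1023 and 512 for mouse. Fold changes are on the log2(value + 1) scale, and every adjusted p is that of limma.

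**Figure D1:**
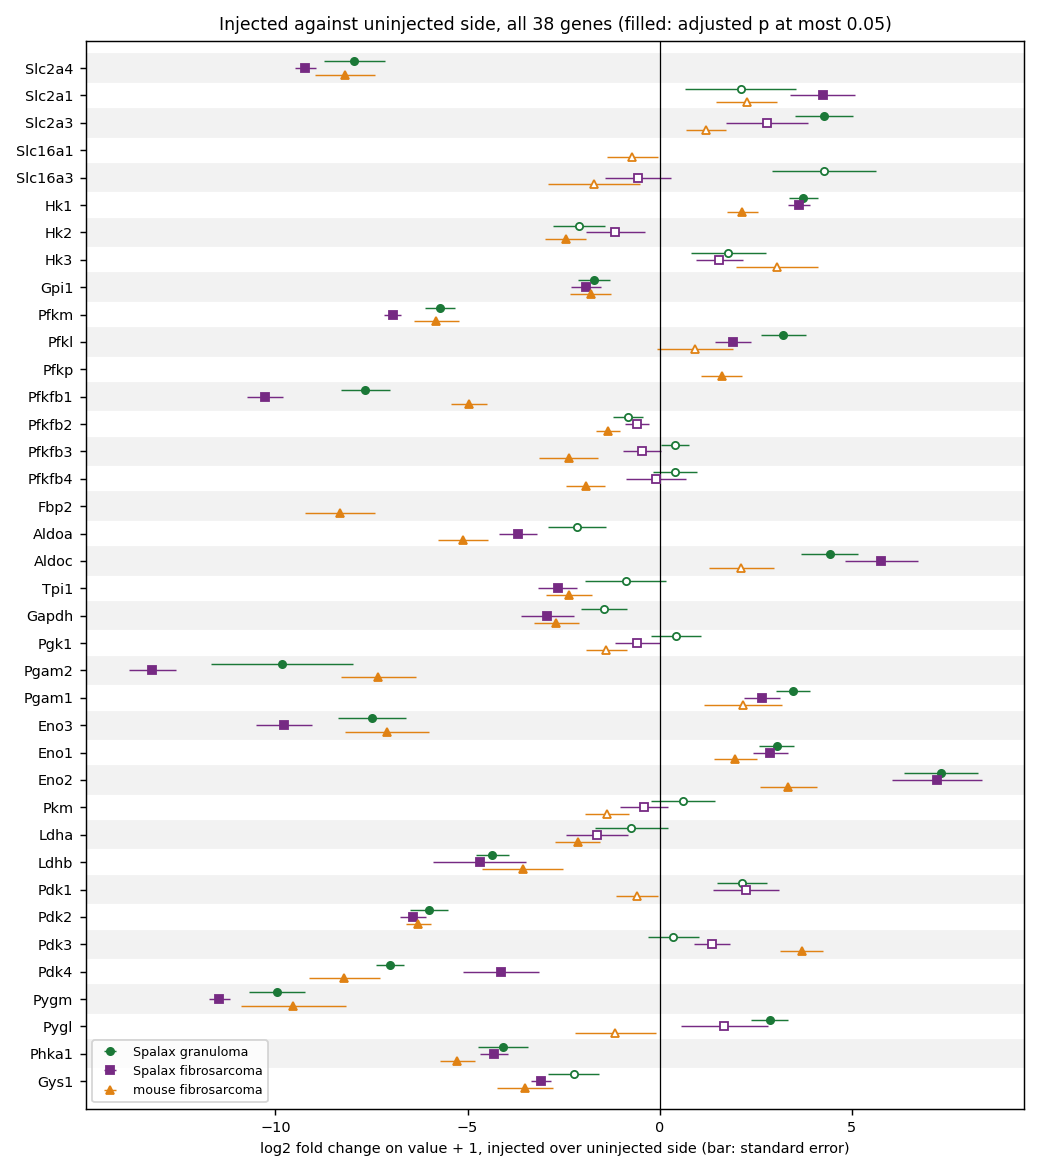
The horizontal axis gives the log2 fold change of the normalised read count plus 1, injected over uninjected side, for the 38 genes of the vertical axis, with 1 point per tumor comparison (2 against 2 libraries in Spalax, 3 against 3 in mouse), bars for the standard error and filled points for an adjusted p of at most 0.05. The muscle isoforms Pygm, Pgam2, Slc2a4, Eno3 and Pfkm lie at -5.72 or lower in all 3 comparisons, while Hk1, Eno1 and Eno2 lie at 1.97 or higher.

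Glucose enters muscle fibers through the insulin-responsive transporter GLUT4, encoded by Slc2a4, and enters most other cells through GLUT1, encoded by Slc2a1. Slc2a4 measured 9279 and 2712 in granuloma UIS against 31.9 and 11.5 in IS, and 9554 and 8687 in fibrosarcoma UIS against 15.0 and 13.5 in IS. In mouse it was 10682, 11542 and 16433 in UIS and 10.8, 67.6 and 97.9 in IS. All IS libraries were far below all UIS libraries, and the log2 fold change was -7.95 (SE 0.79, adjusted p = 0.00672) in granuloma, -9.22 (SE 0.27, adjusted p = 0.000652) in Spalax fibrosarcoma and -8.20 (SE 0.78, adjusted p = 0.00146) in mouse. For Slc2a1 the values were 164 and 1868 in granuloma UIS against 6902 and 823 in IS, and 148 and 84.9 in fibrosarcoma UIS against 965 and 4721 in IS. Mouse libraries held 363, 416 and 551 in UIS and 567, 5176 and 3138 in IS. Slc2a1 was higher in IS in every animal but granuloma 976, whose UIS library held more than its tumor, and the difference was called in Spalax fibrosarcoma (4.24, SE 0.84, adjusted p = 0.023) but not in granuloma (2.10, SE 1.46, adjusted p = 0.325) or mouse (2.26, SE 0.79, adjusted p = 0.0551). In mouse it was called with the animal as a block (limma adjusted p = 0.0369), by edgeR (0.0291), by DESeq2 (0.00126), in 1 model over all mouse libraries (0.0256) and with scaling by total reads (0.00976). The 2 tumors of each Spalax pair differed strongly from each other in Slc2a1, 6902 against 823 in granuloma and 965 against 4721 in fibrosarcoma.

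Slc2a3 encodes GLUT3, a transporter of high affinity. It rose in granuloma (4.27, SE 0.74, adjusted p = 0.0185), with values of 130.2 and 35.3 in UIS and 1830 and 972 in IS. In the limma fit used throughout it was not called in Spalax fibrosarcoma (2.78, SE 1.07) or mouse (1.21, SE 0.53). In Spalax fibrosarcoma it was called higher in 1 model over all Spalax libraries (limma adjusted p = 0.0224), by DESeq2 (0.000968) and with scaling by total reads (0.0482). In mouse DESeq2 (0.0358) and limma with scaling by total reads (0.011) called it higher. Lactate leaves glycolytic cells through the transporter of Slc16a3 (MCT4), and that of Slc16a1 (MCT1) carries it in either direction. Neither was called in any tumor comparison in the limma fit used throughout. Slc16a3 measured 330.4 and 23.6 in granuloma UIS against 3460 and 880.3 in IS, and 3493 and 1148 in fibrosarcoma UIS against 684 and 2673 in IS. In granuloma both tumors lay above both UIS libraries (4.28, SE 1.35, adjusted p = 0.0728), and the difference was called with the animal as a block (limma adjusted p = 0.0119), in 1 model over all Spalax libraries (0.00955), by DESeq2 (0.00812) and with scaling by total reads (0.0427). In Spalax fibrosarcoma the libraries overlapped (-0.57, SE 0.87, adjusted p = 0.642). In mouse Slc16a3 was 1786, 1221 and 9903 in UIS and 163, 1741 and 2205 in IS, with overlap (-1.70, SE 1.20, adjusted p = 0.281), and Slc16a1 ranged from 624 to 3897 in the mouse tumors around 2221 to 3650 in UIS.

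Hexokinases trap glucose in the cell as glucose 6-phosphate. HK2 is the insulin-regulated form of muscle and HK1 the form of most other cells. Hk1 measured 175 and 145 in granuloma UIS against 2607 and 1755 in IS, and 212 and 218 in fibrosarcoma UIS against 2187 and 3198 in IS. Mouse values were 329, 387 and 149.7 in UIS and 988, 1304 and 1314 in IS. It rose in all 3 comparisons without overlap, with log2 fold changes of 3.74 (SE 0.39, adjusted p = 0.00729), 3.61 (SE 0.29, adjusted p = 0.0039) and 2.15 (SE 0.40, adjusted p = 0.00758). Hk2 held 3173 and 5374 in granuloma UIS against 1833 and 503 in IS, and 2252 and 3323 in fibrosarcoma UIS against 580.5 and 2602 in IS. In mouse Hk2 was 9693, 7872 and 5534 in UIS and 603, 2131 and 2003 in IS. Hk2 fell in mouse (-2.45, SE 0.53, adjusted p = 0.0121), and its difference was not called in granuloma (-2.10, SE 0.69, adjusted p = 0.0787) or in Spalax fibrosarcoma (-1.15, SE 0.77, adjusted p = 0.297), where tumor 2240 at 2602 lay above the UIS library of animal 2230 at 2252. Of the 6 muscle isoforms Hk2 had the smallest changes. Hk3, a form of white blood cells, was not called in any of the 3 comparisons in the limma fit used throughout, although the tumors lay above UIS without overlap in each. In mouse it measured 43.5, 66.0 and 7.20 in UIS and 665, 275 and 74.7 in IS (3.05, SE 1.07, adjusted p = 0.0557), on 5 to 64 reads in UIS. This difference was called with the animal as a block (limma adjusted p = 0.0133), by edgeR (0.0499), by DESeq2 (0.00525), in 1 model over all mouse libraries (0.0265) and with scaling by total reads (0.0214). In Spalax Hk3 measured 200.2 and 29.4 in granuloma UIS against 234 and 307 in IS, and 64.0 and 69.1 in fibrosarcoma UIS against 328 and 117 in IS, with log2 fold changes of 1.78 (SE 0.97, adjusted p = 0.227) and 1.55 (SE 0.61, adjusted p = 0.115). DESeq2 (adjusted p = 0.041) and limma with scaling by total reads (adjusted p = 0.0414) called it in fibrosarcoma. Scaling by total reads left the fall of Hk2 in mouse uncalled. In granuloma Hk2 was called lower in 1 model over all Spalax libraries (limma adjusted p = 0.034) and by DESeq2 (0.0419).

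Phosphofructokinase commits the sugar to glycolysis, with Pfkm encoding the muscle, Pfkl the liver and Pfkp the platelet subunit. Pfkm measured 45100 and 29061 in granuloma UIS against 629 and 743 in IS, and 48498 and 41346 in fibrosarcoma UIS against 369 and 352 in IS. The mouse libraries gave 63578, 39794 and 129199 in UIS and 696, 1244 and 2133 in IS. Pfkm fell in all 3 comparisons, with log2 fold changes of -5.72 (SE 0.39, adjusted p = 0.0049), -6.95 (SE 0.23, adjusted p = 0.000652) and -5.81 (SE 0.58, adjusted p = 0.0016). Pfkl had 426 and 149.6 in granuloma UIS against 2972 and 1874 in IS, and 854 and 365 in fibrosarcoma UIS against 2231 and 1969 in IS and rose in granuloma (3.22, SE 0.60, adjusted p = 0.0212) and Spalax fibrosarcoma (1.91, SE 0.46, adjusted p = 0.0368). In mouse Pfkl was 1121, 1882 and 147 in UIS and 629.5, 1396 and 2402 in IS, and the tumors overlapped with UIS (0.92, SE 0.99, adjusted p = 0.48). Pfkp, described in mouse alone, measured 422, 548 and 141 in UIS and 792, 888 and 1335 in IS and rose (1.61, SE 0.54, adjusted p = 0.0484), a call that edgeR, the animal block (adjusted p = 0.0784), a pseudocount of 0.1 and the fit without a filter did not make.

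The level of fructose 2,6-bisphosphate, the strongest activator of phosphofructokinase, is set by the 4 bifunctional enzymes Pfkfb1 to Pfkfb4. Pfkfb1, the form of liver and muscle, measured 816 and 912 in granuloma UIS against 4.36 and 2.42 in IS, and 1423 and 1084 in fibrosarcoma UIS against 0 and 0 in IS. Mouse Pfkfb1 was 1415, 1647 and 4254 in UIS and 57.4, 86.0 and 62.6 in IS. It fell in granuloma (-7.66, SE 0.64, adjusted p = 0.00557), in Spalax fibrosarcoma (-10.28, SE 0.47, adjusted p = 0.00128) and in mouse (-4.97, SE 0.47, adjusted p = 0.00142). Both Spalax fibrosarcomas were at 0 reads, so the fall there is given as at least 688-fold, against a floor of 3 reads per library. In mouse the 3 tumors kept 57.4 to 86.0, and the difference between the 2 species was called (-5.31, SE 0.71, adjusted p = 0.0118), where 3.95% of 11086 genes tested in both species were called. Since the Spalax tumors were at 0, the size of this difference was set by the pseudocount, at -8.61 with a pseudocount of 0.1, and it was -3.81 with these tumors placed at the floor of 3 reads per library. With the animal as a block this difference had an adjusted p of 0.0519, and without UIS library 2230 or 2240 of 0.0942 or 0.0746.

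Pfkfb2, Pfkfb3 and Pfkfb4 fell in mouse, by 1.35 (SE 0.31), 2.37 (SE 0.76) and 1.93 (SE 0.51) on the log2 scale with limma adjusted p of 0.0148 to 0.0429, and were not called in either Spalax tumor. Pfkfb3, the inducible form of many tumors, measured 1693 and 1159 in granuloma UIS and 2054 and 1646 in the granulomas, and 1952 and 1410 against 784 and 1851 in fibrosarcoma. Their falls in mouse were not called with scaling by total reads. Fbp2, the muscle fructose bisphosphatase that runs the phosphofructokinase step backwards, fell in mouse from 1207, 894 and 3713 to 0.52, 11.9 and 5.26 (-8.32, SE 0.92, adjusted p = 0.00199), values that rested on 1 to 20 reads in the tumors.

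Aldolase splits the sugar into 2 trioses. Aldoa, the aldolase of muscle and of most other tissues, measured 100964 and 28305 in granuloma UIS against 15444 and 9258 in IS, and 234478 and 123671 in fibrosarcoma UIS against 11345 and 15403 in IS. In mouse Aldoa was 292913, 187194 and 462431 in UIS and 4057, 9812 and 14996 in IS. No tumor reached the lowest UIS library of its species, and the fall was called in Spalax fibrosarcoma (-3.69, SE 0.50, adjusted p = 0.01) and mouse (-5.12, SE 0.65, adjusted p = 0.00275) but not in granuloma (-2.16, SE 0.75, adjusted p = 0.0914). Aldoc, the brain aldolase, rested on 2 to 5 reads in the UIS libraries of Spalax and had 6.03 and 4.71 in granuloma UIS against 187 and 97.3 in IS, and 2.84 and 3.64 in fibrosarcoma UIS against 540.3 and 96.5 in IS. It rose in granuloma (4.42, SE 0.74, adjusted p = 0.0172) and Spalax fibrosarcoma (5.77, SE 0.95, adjusted p = 0.0149). In mouse, with 9.67, 20.6 and 7.20 in UIS and 15.0, 86.0 and 112 in IS, the groups overlapped (2.13, SE 0.85, adjusted p = 0.0834).

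Gpi1 interconverts glucose and fructose 6-phosphate, and Tpi1 and Gapdh act on the trioses. Gpi1 held 15447 and 17184 in granuloma UIS against 6204 and 3974 in IS, and 23312 and 14839 in fibrosarcoma UIS against 6171 and 3932 in IS. In mouse it was 16720, 15239 and 34245 in UIS and 3088, 7293 and 9184 in IS. Its fall was of similar size in all 3 comparisons, -1.71 (SE 0.41, adjusted p = 0.038), -1.92 (SE 0.39, adjusted p = 0.0247) and -1.80 (SE 0.53, adjusted p = 0.0321), and was lost in each of them with scaling by total reads. In granuloma it was also lost with the animal as a block (limma adjusted p = 0.0738), with edgeR (0.0748) and without a filter (0.0558). Tpi1 had 34168 and 3976 in granuloma UIS against 8429 and 4702 in IS, and 53655 and 33270 in fibrosarcoma UIS against 4596 and 9732 in IS and fell in fibrosarcoma (-2.66, SE 0.51, adjusted p = 0.0212). Mouse Tpi1, with 49737, 23304 and 49778 in UIS and 3377, 10286 and 12134 in IS, fell too (-2.37, SE 0.60, adjusted p = 0.0198), whereas granuloma, with UIS library 976 below both tumors, was not called (-0.89, SE 1.04, adjusted p = 0.561). Gapdh had 78143 and 39372 in granuloma UIS against 24769 and 16692 in IS, and 190135 and 107052 in fibrosarcoma UIS against 11104 and 31585 in IS. The mouse libraries held 108318, 63255 and 136957 in UIS and 7815, 16784 and 26761 in IS. Gapdh fell in Spalax fibrosarcoma (-2.93, SE 0.69, adjusted p = 0.034) and mouse (-2.69, SE 0.60, adjusted p = 0.013), without a call in granuloma (-1.45, SE 0.59, adjusted p = 0.129). The call in Spalax fibrosarcoma was lost with the animal as a block (limma adjusted p = 0.0534) and with scaling by total reads (0.0509). Pgk1, the first ATP-forming step, was not called in any of the 3 comparisons in the limma fit used throughout. It ranged from 6914 to 19222 in the Spalax tumors and from 4627 to 21285 in UIS. In mouse Pgk1 was called lower in 1 model over all mouse libraries (limma adjusted p = 0.0353) and by DESeq2 (0.0441).

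Phosphoglycerate mutase is encoded by Pgam2 in muscle and by Pgam1 elsewhere. Pgam2 measured 25529 and 1447 in granuloma UIS against 26.9 and 0.60 in IS, and 43787 and 28960 in fibrosarcoma UIS against 1.20 and 5.53 in IS. Mouse values were 32602, 15376 and 10982 in UIS and 23.3, 169 and 326 in IS. Every tumor lay below every UIS library, and the Spalax values rested on 1 to 37 reads in granuloma and 2 to 9 reads in fibrosarcoma. Fold changes were -9.83 (SE 1.84, adjusted p = 0.0215), -13.20 (SE 0.62, adjusted p = 0.00133) and -7.32 (SE 0.97, adjusted p = 0.00298), the lowest value being that of Spalax fibrosarcoma. Pgam1 had 966 and 582 in granuloma UIS against 10932 and 6306 in IS, and 1221 and 801 in fibrosarcoma UIS against 4313 and 9092 in IS. In mouse Pgam1 was 3221, 3401 and 243 in UIS and 4690, 6586 and 7954 in IS. It rose in both Spalax comparisons (3.47, SE 0.45, adjusted p = 0.0102 and 2.66, SE 0.46, adjusted p = 0.0167), and the mouse tumors also lay above UIS without a call (2.17, SE 1.01, adjusted p = 0.122).

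Enolase is encoded by Eno3 in muscle, Eno1 in most tissues and Eno2 in neurons. Eno3 measured 76224 and 29774 in granuloma UIS against 592 and 118 in IS, and 121038 and 92395 in fibrosarcoma UIS against 58.2 and 243 in IS. Mouse Eno3 was 105360, 52547 and 104283 in UIS and 140.1, 459.7 and 3454 in IS. Its log2 fold changes were -7.49 (SE 0.88, adjusted p = 0.00884), -9.78 (SE 0.72, adjusted p = 0.00353) and -7.10 (SE 1.10, adjusted p = 0.00447). Eno1 held 3378 and 1935 in granuloma UIS against 25706 and 17165 in IS, and 4936 and 2823 in fibrosarcoma UIS against 21169 and 35706 in IS. The mouse libraries had 3276, 3590 and 1198 in UIS and 5601, 9048 and 16616 in IS. Eno1 rose in all 3 (3.04, SE 0.46, adjusted p = 0.014, 2.88, SE 0.44, adjusted p = 0.013 and 1.97, SE 0.57, adjusted p = 0.0303), without overlap between UIS and IS, although with the animal as a block Eno1 was not called in mouse (limma adjusted p = 0.0637). Eno2 went from 3.64 to 38.4 in the 4 Spalax UIS libraries to 4628 and 728 in granuloma and 1267 and 3160 in fibrosarcoma. This was the largest rise of the list in Spalax (7.32, SE 0.97, adjusted p = 0.0106 and 7.21, SE 1.17, adjusted p = 0.0144), and Eno2 also rose in mouse, with 46.0, 29.9 and 11.5 in UIS and 223, 619 and 136 in IS (3.34, SE 0.74, adjusted p = 0.0131). Nerve markers (6 genes in both tables) made up 0.00263% to 0.0105% of the reads in Spalax UIS and 0.00902% to 0.0368% in the Spalax tumors, and 0.00296% to 0.0051% and 0.0237% to 0.0482% in mouse, and their part in the rise of Eno2 was not tested.

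**Figure D2:**
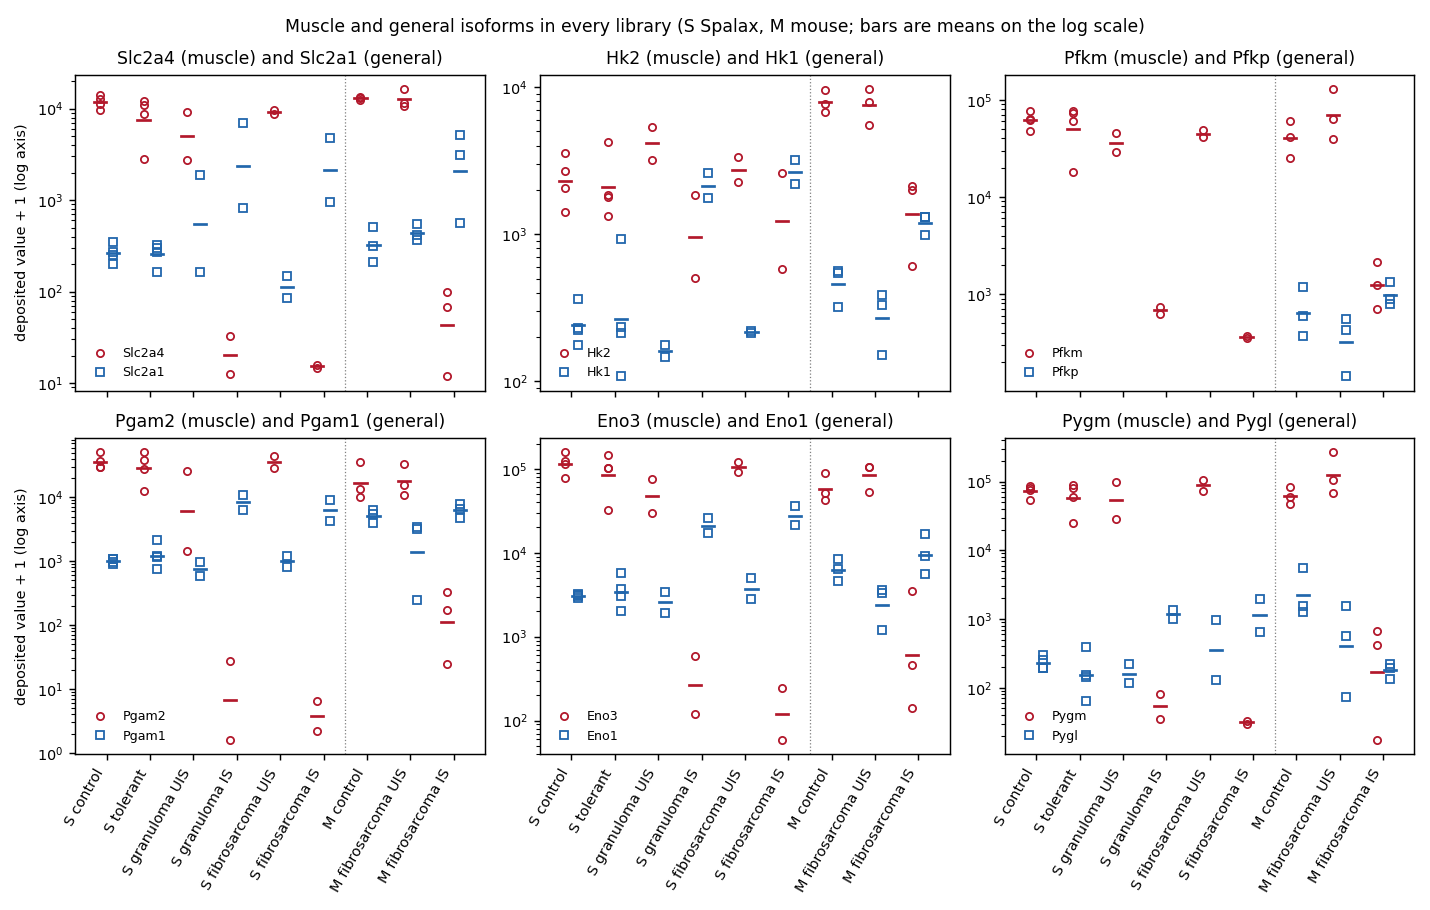
Each panel gives the normalised read count plus 1 on a log axis for a muscle isoform (red circles) and its general isoform (blue squares), with 1 point per library and a bar at the mean on the log scale, over the 6 Spalax (S) and 3 mouse (M) groups. Red lies above blue in every muscle library and falls below it in the tumors for Slc2a4, Pgam2 and Eno3, while Hk2 and Hk1 meet in the mouse tumors at 603 to 2131 and 988 to 1314.

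Pyruvate kinase (Pkm) forms pyruvate, and gene counts do not separate its muscle splice form from that of dividing cells. Pkm was not called by limma in any comparison, with 14265 to 43213 in the Spalax tumors and 13386 to 29032 in the mouse tumors. Lactate dehydrogenase is built from an A subunit (Ldha), which favors the formation of lactate, and a B subunit (Ldhb), which is abundant in oxidative muscle and heart. Ldhb measured 5090 and 9819 in granuloma UIS against 325 and 367 in IS, and 4099 and 5291 in fibrosarcoma UIS against 51.6 and 625 in IS. In mouse Ldhb was 11605, 13807 and 849 in UIS and 601, 309.6 and 440.0 in IS. It fell in granuloma (-4.35, SE 0.42, adjusted p = 0.00658), Spalax fibrosarcoma (-4.68, SE 1.22, adjusted p = 0.0432) and mouse (-3.56, SE 1.05, adjusted p = 0.0328). The call in Spalax fibrosarcoma was lost with edgeR (adjusted p = 0.0723), without a filter (0.0677) and with scaling by total reads (0.0561), and the call in mouse with scaling (0.101). The mouse fall rested partly on animals 1019 and 1023, since UIS library 512 held 849, close to the tumors at 310 to 601. Ldha fell in mouse alone (-2.13, SE 0.58, adjusted p = 0.0258), and ran from 4980 to 23630 in the Spalax tumors against 6130 to 39512 in UIS, without a call.

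Pyruvate dehydrogenase kinases (Pdk1 to Pdk4) switch off the enzyme that feeds pyruvate to the mitochondria. Pdk2 measured 11104 and 5100 in granuloma UIS against 139 and 96.1 in IS, and 10805 and 7468 in fibrosarcoma UIS against 129 and 83.6 in IS. Mouse Pdk2 was 11832, 9177 and 14975 in UIS and 105, 154 and 210.5 in IS. Its fall had nearly the same size in all 3 comparisons, -6.01 (SE 0.49, adjusted p = 0.00554), -6.42 (SE 0.34, adjusted p = 0.00169) and -6.28 (SE 0.33, adjusted p = 0.000693). Pdk4, which rises in fasting muscle, held 12427 and 11065 in granuloma UIS against 71.9 and 110.0 in IS, and 4595 and 5053 in fibrosarcoma UIS against 99.5 and 748 in IS. In mouse Pdk4 was 54936, 42654 and 221510 in UIS and 77.0, 464 and 554 in IS. Its log2 fold change was -7.03 (SE 0.37, adjusted p = 0.0047) in granuloma, -4.13 (SE 0.99, adjusted p = 0.0355) in Spalax fibrosarcoma and -8.21 (SE 0.93, adjusted p = 0.00212) in mouse, although edgeR, the fit over all Spalax libraries and the fit without a filter did not call it in Spalax fibrosarcoma.

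The other 2 kinases were not called lower in any of these comparisons. Pdk3 rose in mouse from 72.6, 52.6 and 18.7 in UIS to 409, 665 and 617 in IS (3.69, SE 0.56, adjusted p = 0.00411). In Spalax it lay at 49.8 to 138 in UIS and 94.9 to 190.1 in IS, without a call in the limma fit used throughout. With scaling by total reads limma called Pdk3 higher in Spalax fibrosarcoma (2.16, adjusted p = 0.0275) and over all Spalax tumors (1.62, adjusted p = 0.0071). Pdk1, a target of the hypoxia response, was not called in either Spalax tumor alone in the limma fit used throughout. In granuloma it was called higher in 1 model over all Spalax libraries (limma adjusted p = 0.0144), by DESeq2 (0.00683) and with scaling by total reads (0.0277). The same alternatives called it in fibrosarcoma (0.0119, 0.0221 and 0.0458), as did the animal as a block (limma adjusted p = 0.0439). When the 4 tumors were compared with the 4 UIS libraries, Pdk1 rose by 2.20 (SE 0.53, limma adjusted p = 0.0066). It went from 18.5 to 51.9 in UIS to 73.2 to 278 in IS. In mouse, where Pdk1 measured 1595 to 2798 in UIS and 649 to 2630 in IS, it was not called. The plot of the 4 kinases shows every library.

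**Figure D3:**
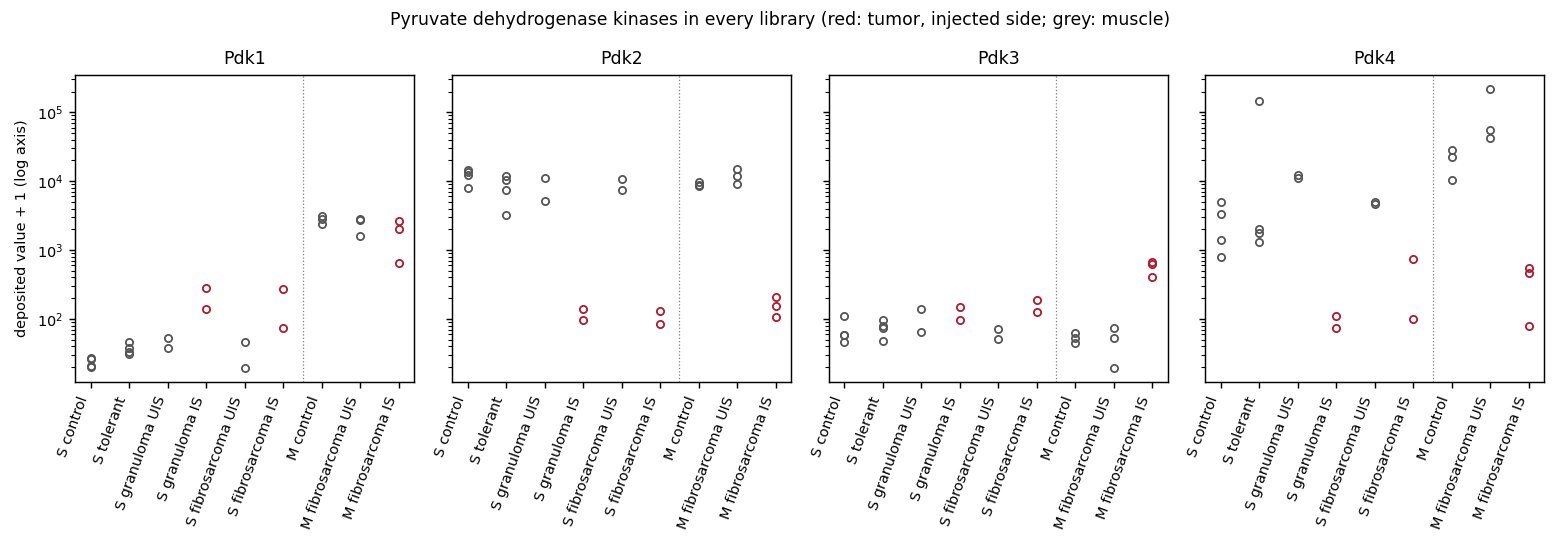
Normalised read counts plus 1 are shown on a log axis for the 4 pyruvate dehydrogenase kinase genes, with 1 point per library over 6 Spalax (S) and 3 mouse (M) groups, tumors in red and muscle in grey. Pdk2 and Pdk4 are lower in all tumors than in the UIS muscle, and 1 tolerant library lies at 144201 for Pdk4.

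Glycogen is broken down by phosphorylase, encoded by Pygm in muscle and Pygl in liver and other cells, and built by glycogen synthase (Gys1 in muscle). Pygm measured 98270 and 28844 in granuloma UIS against 81.3 and 33.8 in IS, and 104102 and 74093 in fibrosarcoma UIS against 32.4 and 28.3 in IS. Mouse Pygm was 106054, 69278 and 267384 in UIS and 16.5, 414 and 667 in IS. Pygm had the lowest fold change of the list in granuloma and mouse, and the second lowest after Pgam2 in Spalax fibrosarcoma, at -9.96 (SE 0.73, adjusted p = 0.00492), -9.53 (SE 1.38, adjusted p = 0.00367) and -11.46 (SE 0.27, adjusted p = 0.000481). Pygl held 219.5 and 117 in granuloma UIS against 1337 and 1016 in IS, and 961 and 127 in fibrosarcoma UIS against 642 and 1976 in IS and rose in granuloma (2.86, SE 0.47, adjusted p = 0.0165), whereas fibrosarcoma was not called (1.68, SE 1.13, adjusted p = 0.299), and UIS library 2230 at 961 lay above tumor 2230 at 642. The same UIS library held 13000 of Ucp1, the uncoupling protein of brown fat, against 1.18 to 4.82 in the other 3. All 6 brown fat markers, Ucp1 among them, summed to 27881 there and to 11002 to 19121 in the other 3. Apart from Ucp1 the sum of this library was not above that range. The part of brown fat in the Pygl value was not tested. In mouse, with 558, 1562 and 72.0 in UIS and 194, 135 and 218 in IS, the tumors overlapped with UIS and were not called (-1.15, SE 1.05, adjusted p = 0.403).

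Phka1, a regulatory subunit of the muscle phosphorylase kinase that switches phosphorylase on, had 13859 and 3958 in granuloma UIS against 372 and 509.9 in IS, and 11614 and 8512 in fibrosarcoma UIS against 380.2 and 654 in IS. The mouse values were 7846, 8415 and 23794 in UIS and 272, 263 and 381 in IS. Phka1 fell in all 3 comparisons, -4.08 (SE 0.65, adjusted p = 0.0152), -4.32 (SE 0.36, adjusted p = 0.00426) and -5.27 (SE 0.46, adjusted p = 0.00131). Gys1 held 6865 and 2224 in granuloma UIS against 1173 and 581 in IS, and 6614 and 6580 in fibrosarcoma UIS against 645 and 923 in IS and fell in fibrosarcoma (-3.09, SE 0.27, adjusted p = 0.00447) without a call in granuloma (-2.24, SE 0.66, adjusted p = 0.0618), where the fit with the animal as a block called it (limma adjusted p = 0.0229). In mouse it went from 11067, 8638 and 13635 to 311, 1155 and 2507 and fell (-3.50, SE 0.72, adjusted p = 0.0105).

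Pooling the 4 Spalax tumors against the 4 UIS libraries of the same animals called 27 of 35 genes, 11 higher and 16 lower, where 52.6% of 14431 genes were called, 26.1% higher and 26.5% lower. The libraries did not overlap for 22 of 35 genes of the list, against 50% of all genes. All 6 muscle isoforms fell and all 5 general isoforms rose in this comparison. Hk2, with -1.63 (SE 0.54, adjusted p = 0.0298), and Slc2a1, with 3.17 (SE 1.03, adjusted p = 0.027), were called here although their libraries overlapped, and both calls were lost with edgeR and without any of 5 of the 8 libraries. Hk3 rose as well (1.66, SE 0.58, adjusted p = 0.0366), and Pfkfb2 fell by 0.71 (SE 0.27, adjusted p = 0.0471), to a value of 0.06 with scaling by total reads. With the animal as a block 25 genes were called, and Hk3, Pfkfb2 and Slc2a1 were lost (limma adjusted p of 0.0538, 0.0512 and 0.0556) while Tpi1 was gained (0.0449).

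The balance of each pair was then described as the log2 ratio of the muscle over the general isoform in a library, without a test, since the pairs had been chosen for this contrast. In Spalax control muscle the mean log2 ratio was 8.29 ± 0.48 for Pygm over Pygl, 5.50 ± 0.24 for Slc2a4 over Slc2a1, 5.23 ± 0.43 for Eno3 over Eno1, 5.15 ± 0.33 for Pgam2 over Pgam1 and 3.25 ± 0.64 for Hk2 over Hk1 (SD, n = 4). From UIS to IS the mean log2 ratio of Pgam2 over Pgam1 moved by -13.30 in granuloma, -15.86 in Spalax fibrosarcoma and -9.49 in mouse, and that of Slc2a4 over Slc2a1 by -10.05, -13.46 and -10.46. For Eno3 over Eno1 the move was -10.52, -12.66 and -9.07, and for Pygm over Pygl -12.81, -13.14 and -8.38. Hk2 over Hk1 moved least, by -5.84, -4.77 and -4.61, and Pfkm over Pfkp moved by -7.42 in mouse. In none of these did an IS library overlap a UIS library.

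**Figure D4:**
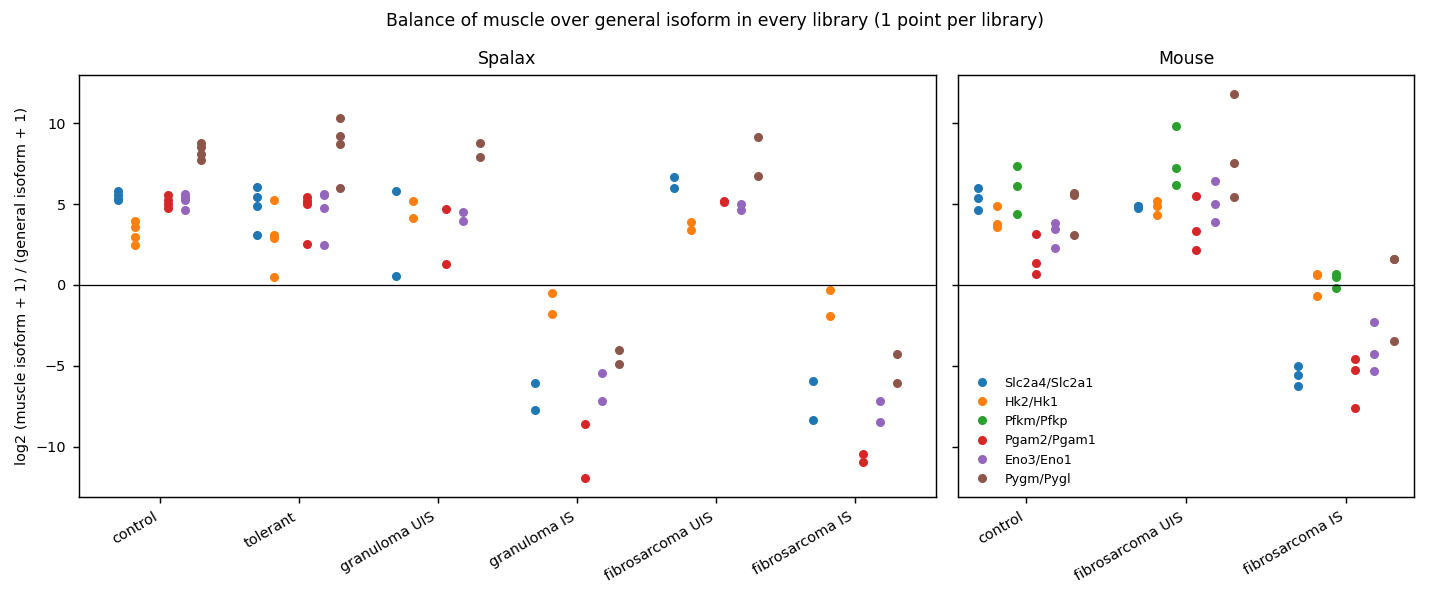
The vertical axis gives the log2 ratio of the muscle isoform plus 1 over the general isoform plus 1, with 1 point per library and 1 color per pair, for the Spalax groups on the left and the mouse groups on the right. All muscle libraries lie above 0, the Spalax tumors lie below 0 for all 5 pairs, and the mouse tumors lie on both sides of 0 for Hk2/Hk1, Pfkm/Pfkp and Pygm/Pygl.

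As a share of both counts, the general isoform made up 0.967% to 40.8% in the Spalax UIS libraries and 98.5% to 99.7% in the tumors for Slc2a1, the upper UIS value being that of animal 976. For Eno1 the share was 2.97% to 6.1% in UIS and 97.8% to 99.7% in the tumors, and for Hk1 2.62% to 8.6% and 55.1% to 79%. Spalax counts were not scaled by gene length. These shares therefore show a change between libraries, not which isoform was more abundant. The summed count of both isoforms was mostly lower in the tumors. Both enolases together had a mean of 110596 in Spalax fibrosarcoma UIS and 28588 in IS, both phosphorylases 89642 and 1340, and both mutases 37385 and 6706. For the hexokinases the mean sum of fibrosarcoma IS, 4283, was above that of UIS, 3002, with ranges of 2768 to 5799 and 2464 to 3541 that overlap. In mouse the mean sum of every pair was lower in IS than in UIS, at 2363 against 77894 for Pfkm and Pfkp and at 2781 against 7988 for the hexokinases.

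Counts of different genes depend on their length, so the mouse levels were also expressed as RPKM, the reads scaled by library depth and by the length of the annotated exons. On this scale each of the 6 muscle isoforms was above its general isoform in control and UIS muscle, for example Eno3 at 1099 to 1959 and Eno1 at 39.1 to 72.2 RPKM in control. In the mouse tumors Slc2a1 (12.7 to 105 RPKM), Pgam1 (186 to 294) and Eno1 (81.8 to 226) exceeded Slc2a4 (0.245 to 2.06), Pgam2 (2.17 to 28.5) and Eno3 (6.32 to 146) in level. Pfkm stayed above Pfkp, at 16.4 to 46.8 against 4.64 to 7.3 RPKM. The annotated exons cover 13401 bases in Pfkp and 3340 in Pfkm, while their coding sequences have 2355 and 2343. In counts Pfkm measured 696, 1244 and 2133 and Pfkp 792, 888.5 and 1335 in tumors 1019, 1023 and 512. Their order in tumor 1019 and the size of the gap thus depended on the length used. All general isoforms had longer annotated exons than their muscle isoforms, which lowers them on this scale. Hk2 (7.93 to 25.4) overlapped with Hk1 (9.1 to 11.3), and Pygm (0.404 to 15.2) with Pygl (1.39 to 2.32). Tumor 1019, which had the lowest muscle marker share (0.00342%, against 0.221% and 0.833% in 1023 and 512), also had the lowest count of all 6 muscle isoforms in the mouse tumors.

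Granuloma and fibrosarcoma were compared directly to ask whether the benign and the malignant tumor of Spalax differ in these genes. No gene of the list was called between the 2 fibrosarcoma IS and 2 granuloma IS libraries, and 0 of all 14562 genes were (0%). At an unadjusted p under 0.05 limma gave 1 of 33 genes of the list and 591 of all genes (4.06%), while DESeq2 called 153 genes and none of the list and edgeR called 0. Pfkm was the 1 gene, with 629 and 743 in granuloma and 369 and 352 in fibrosarcoma (-0.92, SE 0.31, adjusted p = 1). Pygm was likewise lower in both fibrosarcomas (32.4 and 28.3) than in both granulomas (81.3 and 33.8), at -0.78 (SE 0.73, adjusted p = 1), and Pfkfb2 was higher (0.59, SE 0.33, adjusted p = 1). Muscle markers moved in the same direction as Pfkm and Pygm, with a median log2 difference of -2.13 over 10 markers tested and summed shares of 0.0639% and 0.0045% in granulomas 600 and 976 and 0.0111% and 0.00816% in fibrosarcomas 2230 and 2240. Granuloma 976, with the lower muscle share of the granulomas, had the higher Pfkm. Fibroblast markers were lower in fibrosarcoma as well, with a median of -2.27 and no overlap for 7 of 9 markers (shares of 14.1% and 7.28% in granuloma, 3.37% and 0.9% in fibrosarcoma). Dividing cell markers had a median of 0.82, without overlap for 5 of 6, where 31.4% of all genes did not overlap. None of these markers was called, and their part in the values of the list was not tested.

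The IS against UIS changes of the 2 Spalax tumors did not differ by an interaction term in any gene of the list at an adjusted p of at most 0.05, and 0 of all 15584 genes did (0%). At an unadjusted p under 0.05 there were 4 of 35 genes of the list and 766 of all genes (4.92%) by limma, and adjusted calls numbered 0 by edgeR and 88 by DESeq2, none of the list. The 4 genes were Pdk4 (2.89, SE 1.15), Pfkfb1 (-2.62, SE 0.77), Pfkm (-1.23, SE 0.43) and Slc16a3 (-4.84, SE 1.86), all with an adjusted p of 0.946. Between Spalax fibrosarcoma and mouse Pfkfb1 was the single call of 35 genes. Pgam2, with a fall of 13.20 in Spalax and 7.32 in mouse, differed by -5.88 (SE 1.42, adjusted p = 0.0572) and was called by DESeq2 and with scaling by total reads.

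In muscle outside the tumors no gene of the list was called by limma. The muscle isoforms of the 3 Spalax muscle groups lay in overlapping ranges, except for Slc2a4 between control and UIS. Pygm measured 54422 to 86132 in control, 24954 to 90104 in tolerant and 28844 to 104102 in tumor-bearing UIS muscle, and Eno3 78293 to 157634, 32032 to 147182 and 29774 to 121038. Among the general isoforms Hk1 measured 177 to 360.4, 107 to 928 and 145 to 218, and Eno1 2850 to 3208, 2000 to 5751 and 1935 to 4936. Between tumor-bearing UIS and control Spalax limma called 0 of 34 genes of the list and 0 of all 13909 (0%), edgeR called 0 of all and DESeq2 516, none of the list, while 2 genes of the list and 16.6% of all genes had an unadjusted p under 0.05. These were Pfkfb3 and Pdk4. Pfkfb3 measured 709, 1250, 616 and 899 in control and 1693, 1159, 1952 and 1410 in UIS (0.86, SE 0.26, adjusted p = 0.208), and Pdk4 1392, 5062, 3358 and 805 in control and 12427, 11065, 4595 and 5053 in UIS (1.85, SE 0.57, adjusted p = 0.218). Both genes overlapped between the groups through control 1075. Slc2a4 did not overlap, with 9787 to 14066 in control and 2712 to 9554 in UIS, at -0.81 (SE 0.39, adjusted p = 0.326), where the libraries of 12.7% of all genes did not overlap.

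Tolerant muscle was compared with control to ask whether carcinogen without a tumor goes along with a change. Of the list 0 of 34 genes were called and 0 had an unadjusted p under 0.05, beside 0 called and 733 at an unadjusted p under 0.05 among all 14020 genes (5.23%). DESeq2 called 60 genes and edgeR 0, none of the list. Pdk1 was the 1 gene without overlap, with 18.9 to 26.5 in control and 30.4 to 45.0 in tolerant (0.66, SE 0.35, adjusted p = 0.923), against 3.86% of all genes. The muscle isoforms had a median log2 difference of -0.34 and the muscle markers of -0.54. Between UIS of tumor-bearing animals and tolerant muscle, which shares its tolerant libraries with the former comparison, limma again called 0 of 34 genes of the list and 1 of all 14029 (0.00713%, higher in UIS). An unadjusted p under 0.05 was reached by 0 of the list and 5.12% of all genes, and the libraries of 0 of the list and 4.11% of all genes did not overlap. Neither edgeR nor DESeq2 called a gene of the list. For Pdk4, however, DESeq2 gave no p-value in this or in the former comparison, so it did not test that gene.

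In mouse UIS against control, limma called 0 of 38 genes of the list and 0 of all 14792 (0%), with 4 of the list and 11% of all genes at an unadjusted p under 0.05. edgeR called 0 of all genes, and DESeq2 called 342 and 1 of the list, Pdk4. Pdk4 measured 22761, 10570 and 28050 in control and 54936, 42654 and 221510 in UIS, without overlap (2.09, SE 0.69, limma adjusted p = 0.441). Eno1, Pfkl and Pgam1 were lower in all 3 UIS libraries than in all controls, at -1.38 (SE 0.46), -2.14 (SE 0.87) and -1.89 (SE 0.95), and Slc2a3 was higher at 0.90 (SE 0.37), all with an adjusted p of 0.441 to 0.483, where 21.2% of all genes did not overlap. White and brown fat markers moved in the same direction as Eno1, Pfkl and Pgam1. Their summed shares were 0.341% to 0.633% (6 white fat markers) and 0.202% to 0.322% (7 brown fat markers) in control, and 0.0232% to 0.317% and 0.0112% to 0.121% in UIS, and their part in these differences was not tested.

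The muscle libraries that stood apart differed from each other in which genes of the list they raised or lowered, as the plot of muscle libraries shows. In granuloma UIS 976, 19 of 35 genes lay outside the range of the 11 other Spalax muscle libraries, 16 below and 3 above, where 46.6% of all 14340 genes with a mean of at least 10 in muscle did, 22.4% below and 24.2% above. Pgam2 (1447), Tpi1 (3976), Aldoa (28305), Ldha (6130), Pkm (4815) and Slc16a3 (23.6) were among those below, and Hk2 (5374), Slc2a1 (1868) and Pdk3 (138) were those above. Ldhb, at 9819, was within the range. The muscle markers of this library made up 9.31% of its reads against 16.2% to 16.7% in the other 3 UIS libraries. Among them Mylpf, a light chain of fast fibers, was at 21236 against 114701 to 184298 in the other 3, and Myh7, the myosin of slow fibers, at 74901 against 38219 to 67809, 2 markers named after their values were seen.

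In tolerant 2251, 7 genes lay below all other Spalax muscle libraries (Hk2, Gpi1, Pfkm, Ldhb, Pdk2, Pygm and Phka1) and 6 above them (Hk1, Hk3, Pgam1, Eno1, Eno2 and Slc2a3), 13 of 35 in all, where 43.2% of all genes lay outside. Hk1 was 928 there against 107 to 234 in the other tolerant libraries, and Hk3 499 against 45.6 to 128. The same library had the lowest muscle marker share of the tolerant group (9.2%), with the highest fibroblast share (1.43%) and macrophage share (0.195%), and their part was not tested. Tolerant 2375 had 144201 for Pdk4 against 1325 to 1996 in the other tolerant libraries, the highest value of that gene in any Spalax library, along with the highest Pfkfb3 (3485) and the lowest Pygl (63.0) and Hk1 (107). Without it the log2 difference of Pdk4 between tolerant and control was -0.33 instead of 1.28, and between tumor-bearing UIS and tolerant 2.17 (unadjusted p = 0.00053, limma adjusted p = 0.578) instead of 0.57. When either 2251 or 2375 was left out, limma called 0 genes of the list between tolerant and control. It also called 0 with all libraries, so this count cannot show what these libraries contribute. Fibrosarcoma UIS 2230 held 8 of 35 genes outside the range, Pdk1 below and Gpi1, Pfkl, Aldoa, Gapdh, Pfkfb1, Pygm and Pygl above, against 6.54% of all genes, and tolerant 2375 held 7, against 12.6%.

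In mouse UIS 512, 34 of 38 genes lay outside the range of the 5 other mouse muscle libraries, 20 above and 14 below, where 70.6% of all 14954 genes did. Pygm (267384), Pfkm (129199), Aldoa (462431), Slc16a3 (9903), Pfkfb3 (29838), Fbp2 (3713) and Pdk4 (221510) were above, and the general isoforms Hk1 (149.7), Pfkp (141), Pgam1 (243), Eno1 (1198) and Pygl (72.0) and also Ldhb (849) were below. It had the highest muscle marker share of the mouse muscle libraries (18.4%) and the lowest fibroblast (0.0154%), macrophage (0.00307%), white fat (0.0232%) and brown fat (0.0112%) shares, and their part was not tested. Of the fiber markers only Myh7 is named for this library, at 654, below the 4325 to 10782 of the other mouse muscle libraries, and fiber type was not tested. In mouse control M1, 22 of 38 genes lay outside the other 5, 15 below and 7 above, against 26.8% of all genes, and among them Pygl (5478), Hk1 (557) and Pfkp were high and Pygm, Pfkm and Eno3 low. This library had the lowest muscle marker share (7.36%) and the highest white fat share (0.633%) of the mouse muscle libraries, and their part was not tested. Between mouse UIS and control limma called 0 genes of the list when either M1 or UIS 512 was left out, as it did with all libraries, so this count cannot show their part either. Without UIS 512, 25 of 38 genes were called between mouse IS and UIS (17 without IS 1023), and 28 of 35 were called over all Spalax tumors without granuloma UIS 976. Of the granuloma comparison by itself, 0 genes of the list and 0 of all genes were called when any of its 4 libraries was left out, and of the Spalax fibrosarcoma comparison when either UIS library was. That comparison gave 19 calls without IS 2230 and 27 without IS 2240, and in each of these fits 1 group held a single library that was assumed to vary like the other.

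**Figure D5:**
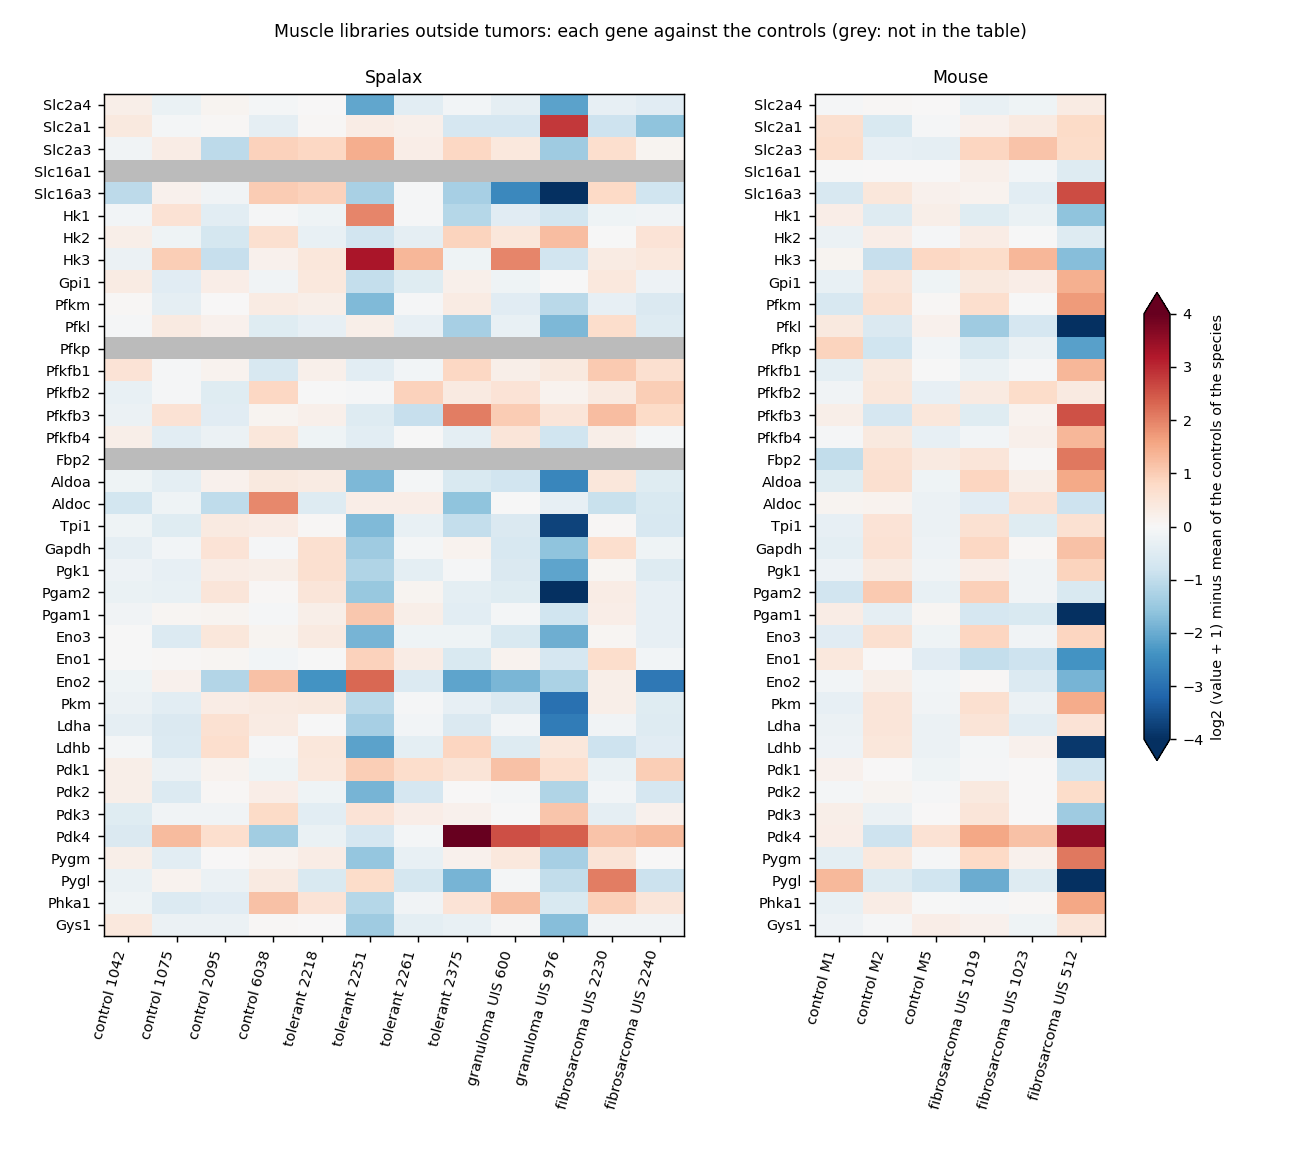
Colors give the log2 of the value plus 1 minus the mean of the controls of the same species, from blue (lower) to red (higher) and cut at 4, for the 38 genes in rows and the 12 Spalax and 6 mouse muscle libraries in columns, with grey for genes not in the table. The columns of granuloma UIS 976, tolerant 2251 and mouse UIS 512 differ from their neighbors over many genes, whereas tolerant 2375 differs mainly in Pdk4 and Pfkfb3.

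Other genes of the pathway, 72 of them in glycolysis and gluconeogenesis, glycogen, pyruvate dehydrogenase and the pentose phosphate route, were called lower more often than higher. In granuloma 6 of 57 tested rose and 22 fell, in Spalax fibrosarcoma 8 of 59 and 31, and in mouse 4 of 62 and 35, with median log2 fold changes of -1.52, -1.40 and -1.62. Over all genes tested 11.7%, 17.4% and 22.8% were called higher and 12.6%, 19% and 22.3% lower, so that the share of these pathway genes called higher was near that of all genes in granuloma and below it in both fibrosarcomas. Of 9 pyruvate dehydrogenase and pyruvate carrier genes tested, 8 fell in both Spalax tumors and none rose. Among the largest rises without overlap in Spalax was that of Pck2, the mitochondrial enzyme that forms phosphoenolpyruvate (3.84, SE 0.73, adjusted p = 0.0221 in granuloma and 2.88, SE 0.46, adjusted p = 0.0142 in fibrosarcoma). In mouse the largest rises were those of Emb, a partner protein of lactate transporters (3.44, SE 0.81, adjusted p = 0.0156), and Pgm1, a phosphoglucomutase (2.07, SE 0.46, adjusted p = 0.0129).

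The largest falls included Ppp1r3a, the muscle subunit that targets a phosphatase to glycogen, in all 3 comparisons, at -10.79 (SE 1.13, adjusted p = 0.0074), -12.65 (SE 0.40, adjusted p = 0.000652) and -9.35 (SE 1.45, adjusted p = 0.00449). Second to it were Epm2a, the glycogen phosphatase laforin, in granuloma (-6.68, SE 0.54, adjusted p = 0.00541) and Gpd1, the cytosolic glycerol phosphate dehydrogenase, in Spalax fibrosarcoma (-9.96, SE 0.51, adjusted p = 0.00155). In mouse Pck1, an enzyme of gluconeogenesis that fat also uses, fell most (-10.55, SE 1.01, adjusted p = 0.00147). Gyg1 and Gyg are named differently in the 2 tables, so each was followed in 1 species alone.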

How the data were processed

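RNA was extracted from neck muscle and tumors, made into stranded libraries and sequenced as single reads of 101 bases. According to the methods of the study, reads were trimmed with Trimmomatic, aligned with TopHat and counted per gene with htseq-count, and the submitters' processing notes name TopHat 1.4.1, HTSeq, DESeq and GRCm38. The strand setting of the counting is not given in the sources used here. The deposited values are a signal, in separate tables for Spalax and mouse. The authors had scaled the read counts of each library by a size factor of its own, and whole reads were recovered from 100% of the values within a tolerance of 0.05. No column belonged to another series. For Spalax, 2387 genes carry a comma in their name, and each such comma was read as a lower-case t.

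Groups were taken from the sample labels. Differences were tested with limma 3.58.1 in R 4.3.3 (lmFit and eBayes with a trend) on log2(value + 1), over the libraries of the groups compared, and p-values were adjusted after Benjamini and Hochberg with a threshold of 0.05. A gene entered a test if its value reached 10 in a number of libraries equal to the size of the smaller group. All p-values are two-sided. The script was tested on simulated data. Levels of Spalax and mouse were not tested against each other, and the difference of their changes was tested by an interaction term over the genes shared by symbol. Alternatives were edgeR 4.0.16 and DESeq2 1.42.0 on the recovered reads, scaling by total reads, a pseudocount of 0.1, no filter, 1 model over all libraries of a species, the animal as a block, and leaving out each library in turn. IS and UIS come from the same animals, which is where the pairing is from. The correlation of the deviations of the libraries of 1 animal from their group means was 0.009 in granuloma, -0.002 in Spalax fibrosarcoma and 0.125, 0.047 and 0.178 in mouse. No 2 libraries of the same group were copies of each other, the lowest chi-square per degree of freedom among 25 replicate pairs being 48.1. Libraries of different groups were not compared in this way.

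The 38 genes, the pathway genes and the marker lists were chosen with earlier results of these data known. All 38 are accounted for. Values of every tumor and UIS library are given for the 12 isoforms and for any gene called in at least 2 tumor comparisons or in another comparison, and pathway genes are named as the 2 largest rises and falls without overlap, of which 1 gene is not reported here. Loci and coding sequences came from GENCODE vM21. Spalax sequences, promoters and proteins were not analysed here.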

Additional observations from a re-analysis of the deposited data

Results flagged for a closer look

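In the tolerant group the Pdk4 value of animal 2375, 144201, lay far from the other 3 at 1325 to 1996. On the log2(value + 1) scale its gap to the nearest made up 0.913 of the range of the 4 libraries. Of 69 tests for such a library 1 was positive, while chance gives about 1 in 20. The same library had the highest Pfkfb3 of the Spalax muscle libraries, at 3485, and a fiber marker share of 13.9%.

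The fall of Pfkfb1 differed between Spalax fibrosarcoma and mouse by -5.31 on the log2 scale (limma interaction, SE 0.71, adjusted p = 0.0118). The 2 Spalax tumors held 0 reads, and the 3 mouse tumors had normalised read counts of 57.4, 86.0 and 62.6. The size of the difference therefore depended on the pseudocount, at -8.61 with 0.1, -8.64 with edgeR and -8.29 with DESeq2, and was -3.81 with the Spalax tumors at a floor of 3 reads per library. The adjusted p ranged from 2.03e-05 to 0.0942 over the alternatives, and the call was lost with the animal as a block and without either Spalax UIS library.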

How the results depend on the processing

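The muscle and general isoforms that were called in a tumor comparison kept their direction there under all alternatives run, and isoforms that were not called were not followed. The genes of the list called numbered 18 to 25 in granuloma, 19 to 25 in Spalax fibrosarcoma, 23 to 28 over all Spalax tumors and 23 to 32 in mouse across the settings that keep all libraries. Leaving out 1 library each gave 0 to 0 in granuloma, 0 to 27 in Spalax fibrosarcoma, 23 to 28 over all Spalax tumors and 17 to 25 in mouse, with 17 without IS 1023. At 2 against 2 libraries the granuloma count thus rests on every library and the Spalax fibrosarcoma count on both UIS libraries (it was 19 without IS 2230 and 27 without IS 2240), and 0 of all genes were called where the members fell to 0. With the animal as a block, 20, 22, 25 and 26 genes were called. The block lost Gpi1 in granuloma, Gapdh in Spalax fibrosarcoma, and Eno1 and Pfkp in mouse, and gained Gys1 and Slc16a3, Pdk1, and Hk3 and Slc2a1.

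The number of genes that differed between Spalax fibrosarcoma and mouse was 0 with the block, 2 with scaling by total reads (Pfkfb1 and Pgam2), 5 with DESeq2 (these and Aldoc, Pdk1 and Pdk4) and 0 to 2 without 1 library. In mouse UIS against control DESeq2 called 1. Pfkfb2 over all Spalax tumors turned to 0.059 with scaling by total reads. Scaling by total reads also removed the calls of Gpi1 in the 3 comparisons, of Gapdh and Ldhb in Spalax fibrosarcoma, and of Hk2, Ldha, Ldhb, Pfkfb2, Pfkfb3, Pfkfb4 and Tpi1 in mouse.

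The log2 ratio of Pgam2 over Pgam1 in Spalax fibrosarcoma moved by -16.346 with a pseudocount of 0.1. Without 1 library each, the change of Slc2a4 over Slc2a1 ran from -12.69 to -7.42 in granuloma, -14.68 to -12.25 in Spalax fibrosarcoma, -1.38 to 0.66 in UIS against control (0.66 without granuloma UIS 976) and -1.02 to -0.04 in tolerant against control. For Hk2 over Hk1 it ran from -5.58 to -3.96 in Spalax fibrosarcoma and -1.06 to 0.52 in tolerant (0.52 without 2251). For Pgam2 over Pgam1 the tolerant range was -0.895 to 0.063 and for Eno3 over Eno1 -0.95 to 0.11, with 0.063 and 0.11 without 2251. For Pygm over Pygl the range was -0.455 to 0.35 in UIS against control, with 0.35 without fibrosarcoma UIS 2230 and 0.05 without control 1042, and -0.31 to 1.12 in tolerant, with -0.31 without 2375. The cause of these turns was not tested. Depth limits the values under 10 reads of Pgam2, Pfkfb1, Aldoc, Eno2, Hk3 and Fbp2.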
